A study of Mus musculus with 25 samples.

Results

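The 7 genes described here encode parts of the phagocyte NADPH oxidase (Cybb, Cyba, Ncf1, Ncf4 and Rac2) and the superoxide dismutases Sod1 and Sod2. They were chosen by symbol among the 24411 gene symbols counted in each sample, with earlier results of these data known. All 7 passed the low-count filter in every comparison. Transcripts were counted by strand-specific RNA-seq in 25 mouse macrophage samples under 9 conditions. Bone marrow-derived macrophages (BMDMs) were grown from C57BL/6 bone marrow for 4 days with 25 ng/ml of the growth factor M-CSF, and 3 samples were taken of each of 7 groups. These were control cells cultured for 4 h, cells given LPS at 100 ng/ml together with IFN-γ at 100 U/ml (called IFN-LPS here) for 1, 4, 12 or 24 h by the labels, and cells given IL-4 (10 ng/ml) or IL-13 (10 ng/ml) for 12 h. IFN-γ is the main macrophage-activating cytokine of T and NK cells and LPS is a bacterial cell-wall component sensed by TLR4, whereas IL-4 and IL-13 are type 2 cytokines. RAW264.7 cells, a mouse macrophage line from a virus-induced tumour of Balb/c mice, were grown in another medium (RPMI). They gave 2 control samples cultured for 4 h and 2 samples with LPS alone (100 ng/ml) for 4 h. The study calls the IFN-LPS cells primed with IFN-γ, and how long IFN-γ was given before LPS, if at all, is not given in the sources used here, so the times may not hold for both agents. BMDMs with LPS alone were not analysed here, so the effect of IFN-γ cannot be told apart from that of LPS. The line and the primary cells differ in mouse strain, stimulus and medium as well as in origin. The control BMDMs were cultured for 4 h while the 12 and 24 h groups were treated for longer, so culture time and treatment cannot be told apart there.

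The phagocyte oxidase passes electrons from NADPH across a membrane to oxygen and makes superoxide. Its catalytic core, flavocytochrome b558, is a heterodimer of gp91phox (Nox2, from Cybb) and p22phox (from Cyba), and each chain needs the other to be stable. Cytosolic subunits, among them p47phox (Ncf1) and p40phox (Ncf4), join the core upon activation together with a Rac GTPase, which can be Rac1 or Rac2. Sod1, in the cytosol, and Sod2, in the mitochondrial matrix, turn superoxide into hydrogen peroxide. Inherited loss of a core or cytosolic subunit causes chronic granulomatous disease, in which phagocytes ingest microbes but kill many of them poorly.

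Counts without the ribosomal precursor Rn45s ran from 1502618 to 2532496 per sample. Levels are given as CPM, the sense-strand counts relative to the TMM-scaled library total over the 25 samples, and a gene is said to have risen or fallen where edgeR's quasi-likelihood test gave a Benjamini-Hochberg adjusted p of at most 0.01 over all genes tested. Any p-value here tests a difference between group means against the spread between samples of a group. That spread is estimated over all groups of a fit and drawn towards the spread of other genes. Macrophage markers fitted the labels in sum, with 8 marker genes summing to 18900 to 32900 CPM in BMDMs and 8530 to 10300 CPM in RAW264.7, where Mertk had no count. Most of this sum was Lyz2, at 19500 to 21500 CPM in control BMDMs, and single markers moved apart. Adgre1 was at 872 to 1040 CPM in control BMDMs and 74.3 to 78.7 CPM in control RAW264.7. Cd14 was at 269 to 317 CPM and 1210 CPM in these groups. Of 9 neutrophil markers listed, since neutrophils carry this oxidase at high levels, the 8 counted summed to 14.7 to 24.6 CPM in control BMDMs. The sum was 32.2 to 51.7 CPM at 1 and 4 h, 21.9 to 28.9 CPM at 12 and 24 h and 12.8 to 28.1 CPM with IL-4 or IL-13. Mpo and Elane were both at 0 in control cells and at 4, 12 and 24 h. S100a8 was at 5.43 to 12.3 CPM in control cells and at 16.8 to 27.6 CPM over the IFN-LPS times. S100a9 was at 3.26 to 4.29 CPM in control cells, 6.43 to 17.2 CPM at 1 and 4 h and 0.497 to 7.15 CPM at 12 and 24 h. The part of neutrophils in the IFN-LPS results was not tested. T cell markers were at 0 in every sample, B cell markers did not pass 0.578 CPM and 4 collagen-type fibroblast markers summed to 52.4 to 109 CPM in BMDMs and 0 in RAW264.7. In bulk samples, fewer cells of a type and less RNA per cell cannot be told apart.

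Each file gave whole-gene counts, which lie in GENCODE M21 (GRCm38, the assembly of mm10) at chrX:9435252-9487771 (Cybb, minus strand), chr8:122424776-122432930 (Cyba, minus), chr5:134220053-134229625 (Ncf1, minus), chr15:78244801-78262580 (Ncf4, plus), chr15:78559167-78572783 (Rac2, minus), chr16:90220754-90226329 (Sod1, plus) and chr17:13006846-13040063 (Sod2, plus). Ncf4 and Rac2 thus share a chromosome. Ncf1 overlaps Gtf2ird2 and Sod1 overlaps Scaf4 on the opposite strand, and the counts used separate the strands.

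The 250 bases before the annotated start are shown for Cybb, Ncf1 and Sod2, chosen because these 3 genes had the largest rises at 1 h, so the matches are no independent support for that rise. They were taken from RefSeq (GRCm38.p6) and are written 5′ to 3′ along the gene, with capitals on matches to 3 motifs searched on both strands: the core TTCNNNGAA of the IFN-γ-activated site (GAS), the IRF core GAAANNGAAA (or TTTCNNTTTC), and the NF-kB consensus.
Cybb, chrX:9469325-9469574, minus strand: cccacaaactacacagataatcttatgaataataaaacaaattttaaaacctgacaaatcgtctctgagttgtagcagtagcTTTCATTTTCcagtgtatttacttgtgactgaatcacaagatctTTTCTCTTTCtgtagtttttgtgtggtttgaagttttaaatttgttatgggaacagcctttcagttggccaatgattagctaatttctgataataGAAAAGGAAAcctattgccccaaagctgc
Ncf1, chr5:134229626-134229875, minus strand: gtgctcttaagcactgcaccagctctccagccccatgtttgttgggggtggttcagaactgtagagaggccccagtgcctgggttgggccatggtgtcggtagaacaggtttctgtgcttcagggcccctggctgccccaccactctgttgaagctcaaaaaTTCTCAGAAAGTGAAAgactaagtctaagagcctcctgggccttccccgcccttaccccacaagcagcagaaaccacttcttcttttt
Sod2, chr17:13007589-13007838, plus strand: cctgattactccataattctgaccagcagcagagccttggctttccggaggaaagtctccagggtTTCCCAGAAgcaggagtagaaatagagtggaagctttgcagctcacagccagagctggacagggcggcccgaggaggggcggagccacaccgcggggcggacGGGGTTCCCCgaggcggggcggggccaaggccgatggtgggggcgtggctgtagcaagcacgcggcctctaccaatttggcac
The RefSeq starts of Cybb and Sod2 lie inside the GENCODE gene spans given above, which begin further upstream, so for these genes the windows are those before one annotated start and not before the outermost one, and which start was used in these cells was not tested. The Cybb sequence held 3 IRF matches, starting 168, 124 and 29 bases before the start. The Ncf1 sequence held a GAS match 88 bases and an IRF match 82 bases before the start, which overlap and appear as 1 run of capitals. The Sod2 sequence held a GAS match 185 bases and an NF-kB match 83 bases before the start. Of 5 members with an entry, Cyba and Sod1 held no match of the 3 kinds in this window, and Ncf4 and Rac2 are named only. Over all 32851 windows of the same length, 7.02% held a GAS match, 2.98% an IRF match and 3.9% an NF-kB match. A match is a match of letters and was not tested as a binding site.

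With IFN-LPS, the mRNAs of the oxidase and of Sod2 rose at different times while Sod1 did not pass the test at any time. At 1 h, Sod2, Ncf1, Cybb and Cyba were already higher than in control cells. Ncf4 passed the threshold at 4 h but not at 1 h, with values of like size (its step from 1 to 4 h was 0.08 ± 0.14 on the log2 scale, adjusted p = 0.66 in edgeR), and Rac2 first rose between 4 and 12 h. Of the 7 members, 4 had risen after 1 h, 5 after 4 h and 6 at both 12 and 24 h, and none had fallen. The members were chosen with earlier results of these data known, so these counts are a description and no independent test. Among the 9568 genes tested, 14.7% rose and 11.3% fell after 1 h, 26.0% rose and 25.6% fell after 4 h, 23.9% rose and 23.4% fell after 12 h, and 23.9% rose and 21.3% fell after 24 h. The members' median log2 fold change was 0.52, 0.74, 1.99 and 2.14 at 1, 4, 12 and 24 h, beside -0.027, -0.075, -0.030 and 0.019 over all genes. At the study's further cutoff of 1.5 or more in log2 size, 1, 3, 5 and 5 members passed at the 4 times, against 7.12%, 22.8%, 17.3% and 14.9% of all genes.

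**Figure D1:**
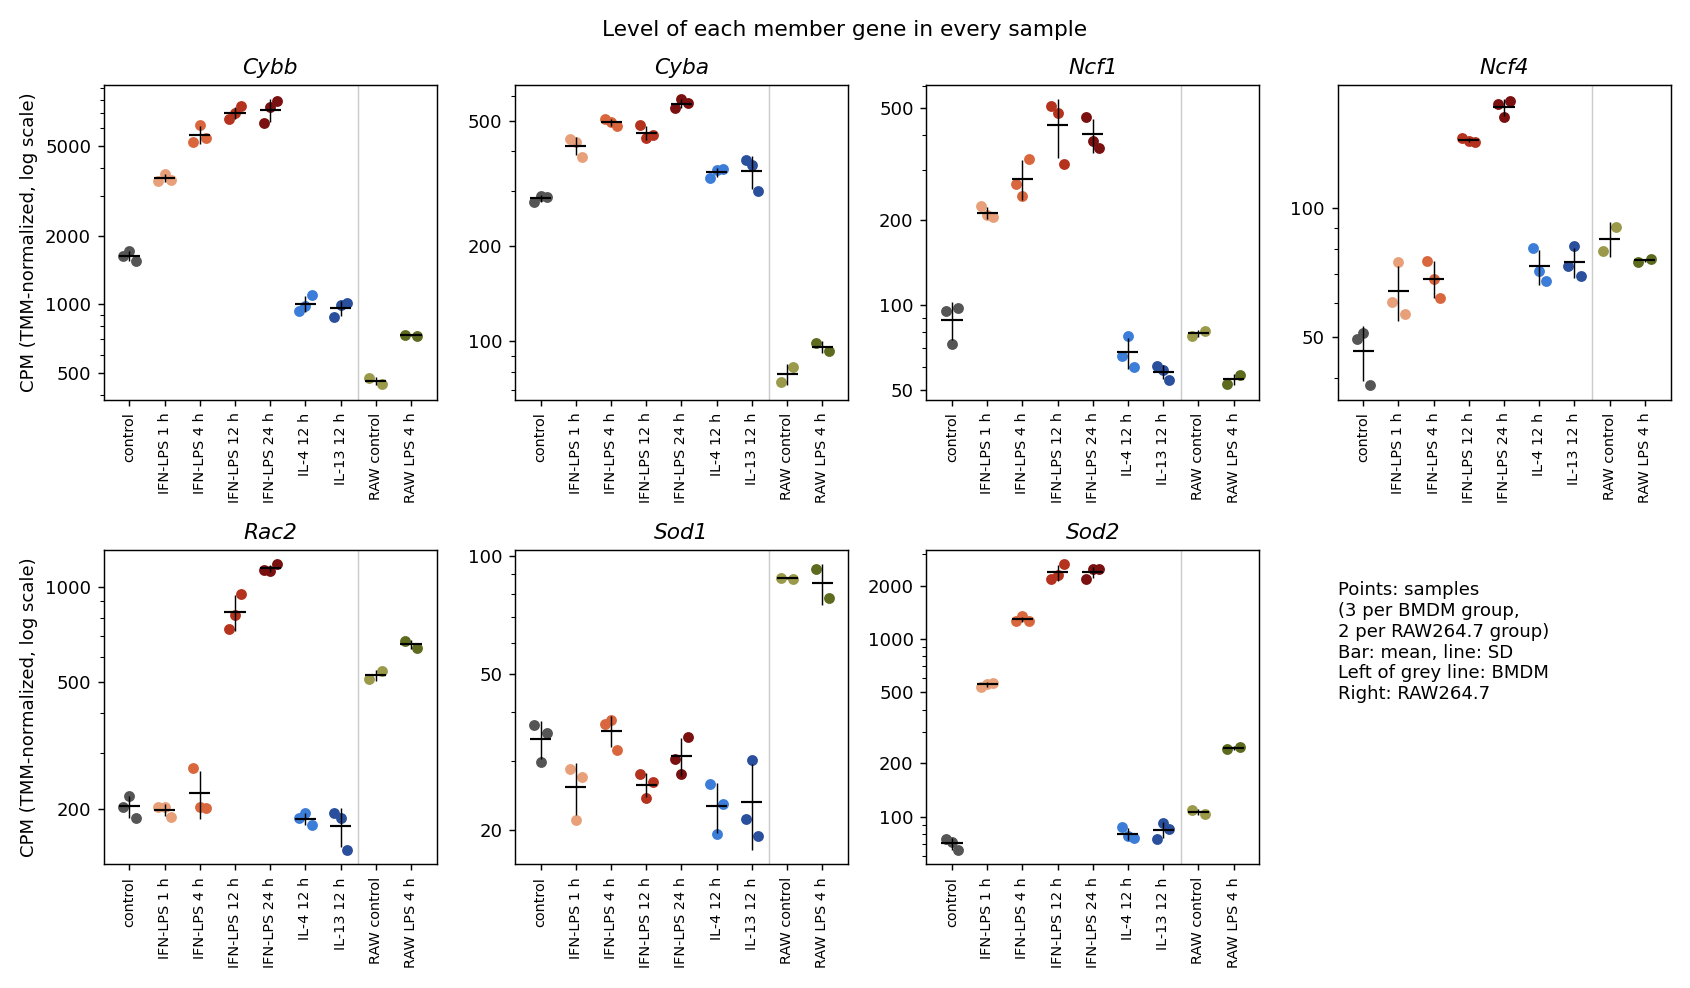
CPM of each of the 7 genes (log axis, a separate range for each gene) in every sample of the 9 conditions, with the group mean as a bar and the SD as a vertical line. Cybb and Sod2 are higher in every IFN-LPS sample than in every control sample, Rac2 separates from control at 12 and 24 h but not at 1 and 4 h of IFN-LPS, and Sod1 is highest in RAW264.7.

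Sod2, the manganese enzyme of mitochondria, changed most. It was at 75.1, 71.6 and 64.7 CPM in the control samples, at 538, 558 and 568 CPM after 1 h, at 1262, 1343 and 1265 CPM after 4 h, at 2169, 2296 and 2645 CPM after 12 h and at 2170, 2469 and 2485 CPM after 24 h. Samples of neighbouring times did not overlap until 12 and 24 h. The fold change in edgeR was 7.70 after 1 h (log2 2.94 ± 0.10, SE, adjusted p = 1.61e-28), 17.6 after 4 h (4.14 ± 0.10), 32.5 after 12 h (5.02 ± 0.11) and 33.5 after 24 h (5.07 ± 0.11). The step from 12 to 24 h was 0.04 ± 0.08 on the log2 scale (adjusted p = 0.76).

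Cybb, the catalytic chain, was at 1629, 1712 and 1558 CPM in control cells, at 3512, 3773 and 3530 CPM after 1 h, at 5215, 6153 and 5423 CPM after 4 h, at 6579, 6944 and 7477 CPM after 12 h and at 6290, 7447 and 7873 CPM after 24 h. Like Sod2, it rose over the first 3 steps and its 12 and 24 h samples overlapped. The fold change was 2.16 after 1 h (log2 1.11 ± 0.09, adjusted p = 3.23e-15 in edgeR), 3.30 after 4 h (1.72 ± 0.09), 4.15 after 12 h (2.05 ± 0.09) and 4.40 after 24 h (2.14 ± 0.09).

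Cyba, the small chain of the same heterodimer, rose less. Its group means were 284 ± 6.71 CPM in control cells (SD, n = 3), 417 ± 28.2 CPM after 1 h, 494 ± 11.2 CPM after 4 h, 458 ± 23.7 CPM after 12 h and 566 ± 18.3 CPM after 24 h. No IFN-LPS sample overlapped a control sample, but the 4 and 12 h samples overlapped each other. The log2 fold change was 0.52 ± 0.09 after 1 h, 0.74 ± 0.09 after 4 h, 0.65 ± 0.09 after 12 h and 0.99 ± 0.09 after 24 h (SE), the last being a fold of 1.99 (adjusted p = 6.33e-14 in edgeR). Without scaling factors the 4 h value was 0.22 and did not pass (adjusted p = 0.023).

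Ncf1, whose product p47phox carries the other cytosolic subunits to the membrane, was at 95.0, 72.7 and 97.4 CPM in control cells and at 224, 208 and 204 CPM at 1 h. It was at 268, 243 and 331 CPM after 4 h, at 506, 480 and 316 CPM after 12 h and at 466, 383 and 359 CPM after 24 h. Replicate 3 after 12 h lay below the other two samples of its group and below replicate 3 after 4 h. The log2 fold change was 1.23 ± 0.18 after 1 h (adjusted p = 2.88e-05 in edgeR), 1.61 ± 0.18 after 4 h, 2.25 ± 0.18 after 12 h and 2.18 ± 0.18 after 24 h. Ncf4, whose product p40phox binds a phosphoinositide of phagosome membranes, rose most between 4 and 12 h. It was at 49.4, 51.0 and 38.5 CPM in control cells, 60.4, 74.6 and 56.6 CPM after 1 h, 75.3, 68.3 and 61.5 CPM after 4 h, 145, 143 and 143 CPM after 12 h and 174, 163 and 178 CPM after 24 h. Its log2 fold change was 0.42 ± 0.14 after 1 h (adjusted p = 0.014 in edgeR, not past the threshold), 0.50 ± 0.15 after 4 h (adjusted p = 0.0027), 1.59 ± 0.13 after 12 h and 1.89 ± 0.12 after 24 h. The call at 4 h was lost with 10 counts or more required of each sample (0.34, adjusted p = 0.042), without control replicate 3 (0.39, adjusted p = 0.031) and without 4 h replicate 1 (0.45, adjusted p = 0.015).

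Rac2, a GTPase subunit, was at 203, 220 and 187 CPM in control cells. It was at 203, 203 and 189 CPM after 1 h and at 268, 203 and 202 CPM after 4 h, and these 3 groups overlapped. It then reached 736, 817 and 951 CPM after 12 h and 1131, 1125 and 1181 CPM after 24 h, apart from each other and from all earlier samples. The log2 fold change was -0.07 ± 0.11 after 1 h (adjusted p = 0.66 in edgeR), 0.08 ± 0.11 after 4 h (adjusted p = 0.53), 1.99 ± 0.10 after 12 h (adjusted p = 1.47e-22) and 2.49 ± 0.10 after 24 h. The value at 4 h depended on the scaling, at -0.44 (adjusted p = 0.00029) without scaling factors, and on replicate 1 of that group, at -0.05 without it. The step from 4 to 12 h was 1.91 ± 0.10 on the log2 scale, 3.75-fold.

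Sod1, the copper and zinc enzyme of the cytosol, stayed between 21.2 and 38.0 CPM in the control and IFN-LPS samples, where 33 to 82 counts a sample limited its precision. Its log2 fold change was -0.43 ± 0.17 after 1 h (adjusted p = 0.051 in edgeR), 0.01 ± 0.18 after 4 h (adjusted p = 0.95), -0.43 ± 0.18 after 12 h (adjusted p = 0.036) and -0.14 ± 0.16 after 24 h (adjusted p = 0.49). Without scaling factors it passed as lower after 1 h (-0.61), 4 h (-0.51) and 12 h (-0.73), and with 10 counts or more required of each sample it passed after 12 h (-0.53).

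Scaling matters most at 4 h. TMM factors were 1.09 to 1.11 in control libraries and 0.717 to 0.752 after 4 h, and leaving them out lowered the median log2 fold change over all genes by 0.53 after 4 h, by 0.19 after 1 h, by 0.31 after 12 h and by 0.22 after 24 h. Then 1022 genes rose and 1831 fell after 1 h, 1489 and 4617 after 4 h, 1550 and 3392 after 12 h and 1622 and 2858 after 24 h, and the log2 fold change of Ncf4 after 4 h was -0.02. The rises of Cybb, Ncf1 and Sod2 at every time and those of Rac2 and Ncf4 at 12 and 24 h kept their call and direction under every alternative run.

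Steps between successive times placed the changes. From 1 to 4 h, 2 members rose (Cybb 0.61 ± 0.09 and Sod2 1.19 ± 0.09, log2 ± SE), where 19.8% of all genes rose and 19.1% fell. From 4 to 12 h, 5 rose (Cybb 0.33 ± 0.09, Ncf1 0.64 ± 0.16, Ncf4 1.08 ± 0.13, Rac2 1.91 ± 0.10 and Sod2 0.89 ± 0.08), where 16.7% of all genes rose and 19.2% fell. Without replicate 1 at 4 h, 3 members rose in this step, since Cybb (0.28, adjusted p = 0.012) and Ncf1 (0.60, adjusted p = 0.037) no longer passed. Cybb was also lost without replicate 3 after 4 h (0.30), and Ncf1 without replicate 2 after 4 h (0.53) and without replicate 1 (0.50) or 2 (0.56) after 12 h. From 12 to 24 h, Cyba (0.35 ± 0.09) and Rac2 (0.50 ± 0.09) rose, where 5.31% of all genes rose and 8.90% fell, and without replicate 2 after 12 h or replicate 2 after 24 h Cyba no longer passed (both 0.32). Without scaling factors 1225 genes rose and 3302 fell in the first of these steps, 2425 and 1278 in the next and 749 and 691 in the last. The 24 h libraries also differed in how many reads fell on the antisense strand of the members, 0.11% to 0.219% against 0.31% to 0.519% in the control, 1, 4 and 12 h libraries. Antisense reads of Rn45s moved likewise, at 0.00603% to 0.0214% in the 24 h, IL-4 and IL-13 libraries against 0.0386% to 0.122% in the control, 1, 4 and 12 h libraries. They were 0.0199% to 0.0283% in the RAW264.7 libraries. These differences cannot be told apart from the groups, and their part in the results was not tested.

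**Figure D2:**
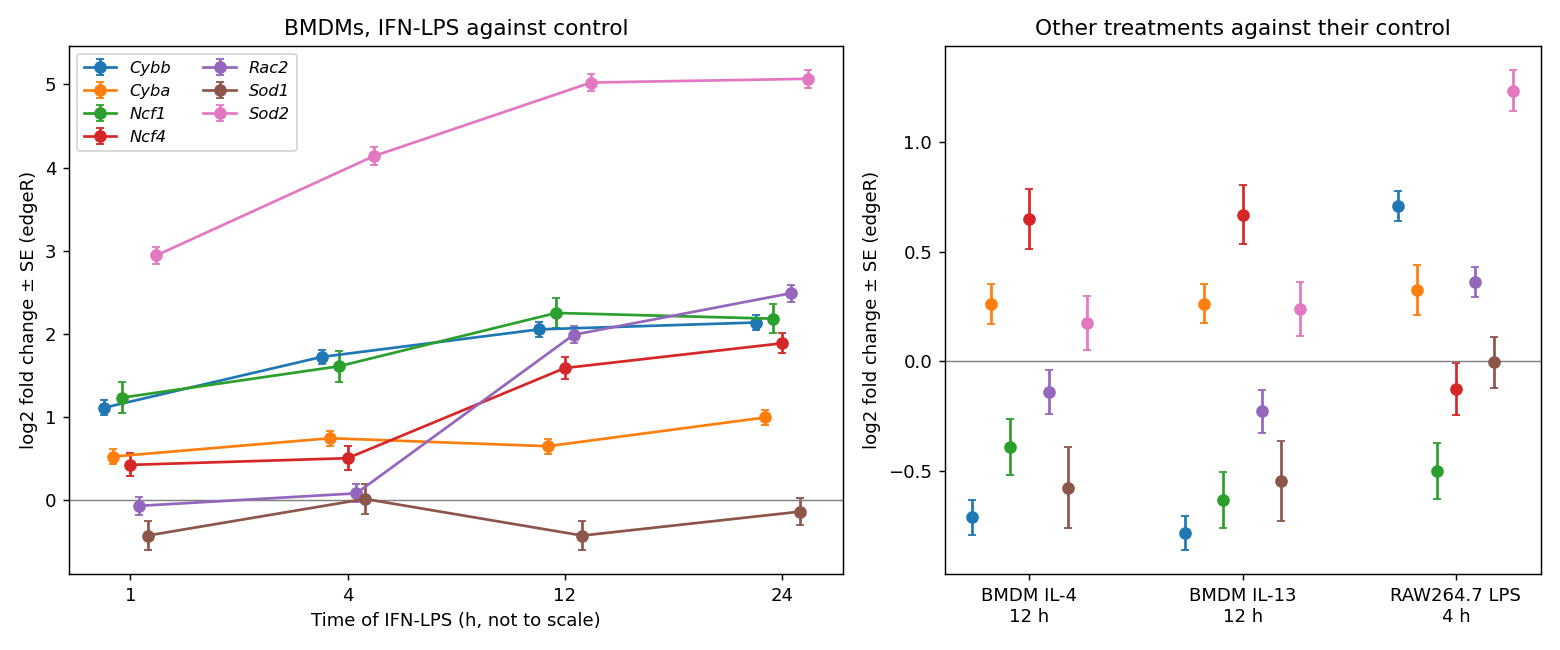
The log2 fold change of each member against its control with its SE (edgeR), for IFN-LPS over time in BMDMs (left) and for IL-4, IL-13 and RAW264.7 with LPS (right). Sod2 leads at every time of IFN-LPS, Rac2 stays near 0 at 1 and 4 h and reaches 2.49 at 24 h, and with IL-4 and IL-13 Cybb lies below 0 and Ncf4 above it.

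Count ratios within a sample do not depend on library scaling. The ratio of Sod2 to Sod1 counts was 1.83 to 2.40 in control cells, 18.9 to 26.3 after 1 h, 34.0 to 39.5 after 4 h, 78.2 to 99.9 after 12 h and 71.6 to 88.7 after 24 h. The ratio of Cybb to Cyba counts went from 5.42 to 5.95 in control cells to 13.6 to 16.6 at 12 h, and no IFN-LPS sample was as low as a control sample. The 2 chains of the heterodimer thus changed by unequal factors at the mRNA level. Rac2 counts were 0.465 to 0.573 times those of Rac1, the more widely expressed Rac, in control cells, 0.374 to 0.416 times after 1 h, 0.403 to 0.547 times after 4 h, 1.86 to 2.28 times after 12 h and 3.13 to 4.02 times after 24 h. The 1 h samples all lay below the control samples, and the groups at 12 and 24 h lay above all earlier samples. The ratio of Ncf1 to Ncf4 was 1.43 to 2.53 in control cells, 2.78 to 3.71 after 1 h of IFN-LPS and 3.56 to 5.37 after 4 h, all above control. It was 2.21 to 3.48 after 12 h and 2.02 to 2.67 after 24 h, which overlapped control cells, and 0.818 to 1.09 after IL-4 and 0.723 to 0.827 after IL-13, below them. No test was run on these ratios.

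**Figure D3:**
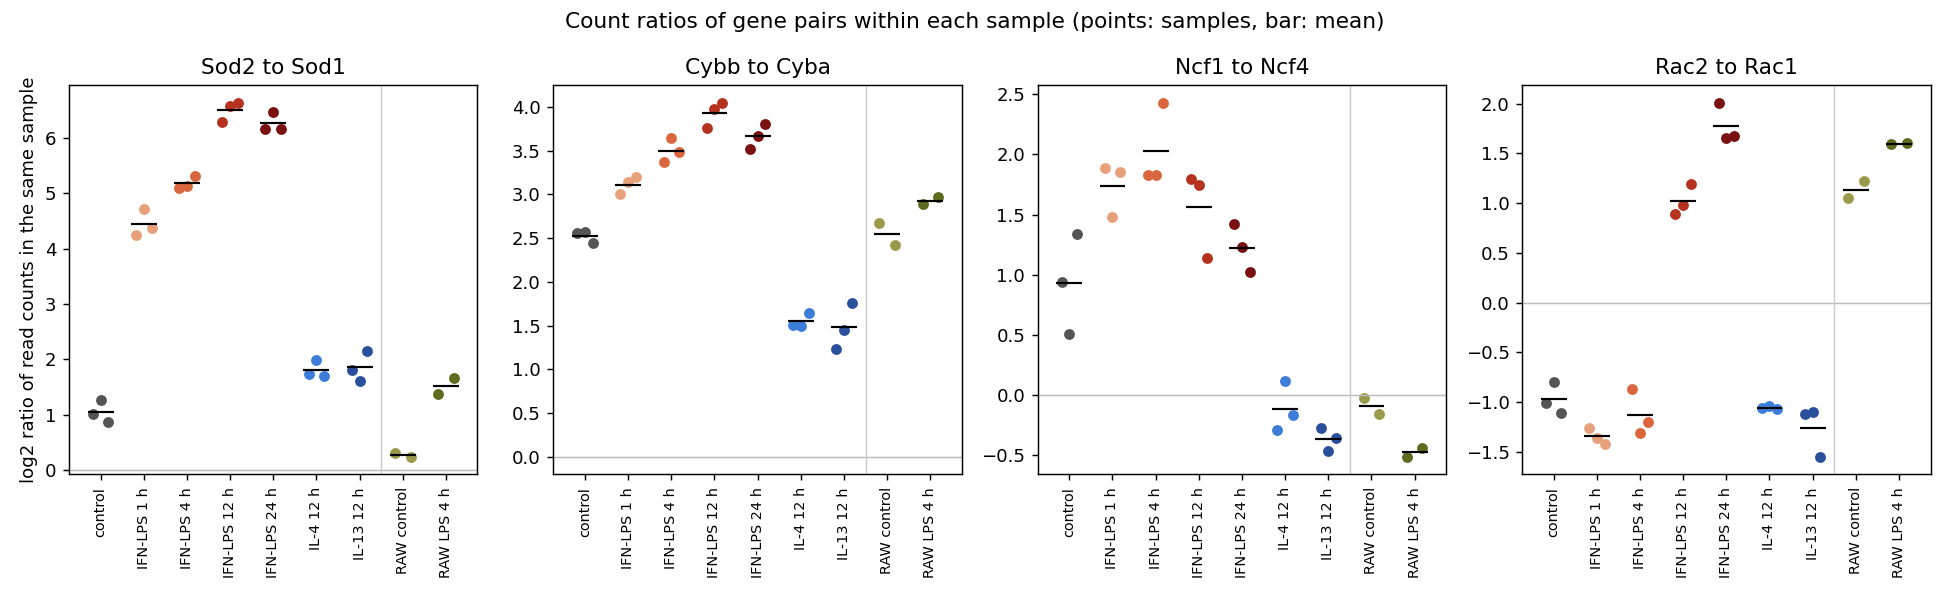
The log2 ratio of read counts of 4 gene pairs in the same sample (points, with the group mean as a bar) over the 9 conditions. The ratio of Sod2 to Sod1 climbs from a mean of 1.05 in control BMDMs to 6.5 at 12 h, and the ratio of Rac2 to Rac1 climbs from -1.13 at 4 h to 1.02 at 12 h.

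Per length, the members stood in another order. Using GENCODE exon lengths, Cyba at 381 ± 9.02 CPM per kb (SD, n = 3) and Cybb at 344 ± 16.2 CPM per kb led in control cells, followed by Rac2 at 67.0, Sod1 at 53.1, Ncf4 at 31.6, Ncf1 at 30.7 and Sod2 at 12.0 CPM per kb. At 12 h of IFN-LPS the order was Cybb (1470), Cyba (616), Sod2 (404), Rac2 (275), Ncf1 (151), Ncf4 (98.2) and Sod1 (40.7 CPM per kb). Sod2 thus moved from the last place to the third. The transcript forms expressed were not resolved, so these values depend on the exon lengths used.

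With IL-4 or IL-13, fewer of the 7 genes changed and in both directions. Cybb fell and Ncf4 rose with either cytokine, and Ncf1 fell with IL-13. With IL-4, 4.38% of 9252 genes rose and 3.25% fell, and with IL-13, 5.61% rose and 4.49% fell. At the study's further cutoff of 0.7 only Cybb passed in each, against 3.86% and 5.36% of all genes. Culture time (12 h against 4 h) and the share of antisense reads given above differ between these groups and the control too.

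Cybb was at 938, 983 and 1096 CPM with IL-4 and at 879, 992 and 1013 CPM with IL-13, all below the 1558 to 1712 CPM of control cells. Its log2 fold change was -0.71 ± 0.08 (adjusted p = 2.73e-10 in edgeR) and -0.78 ± 0.08 (adjusted p = 1.09e-11). Ncf4 was at 80.7, 71.2 and 67.4 CPM with IL-4 and at 73.1, 81.3 and 69.4 CPM with IL-13, all above control cells, with log2 fold changes of 0.65 ± 0.14 (adjusted p = 0.00041) and 0.67 ± 0.14 (adjusted p = 0.00017). The call with IL-4 was lost without control replicate 3 (0.53, adjusted p = 0.014) or without IL-4 replicate 1 (0.57, adjusted p = 0.011). Ncf1 was at 66.0, 77.3 and 60.2 CPM with IL-4, overlapping the control samples, and at 60.4, 58.8 and 54.2 CPM with IL-13, below all of them. Its log2 fold change was -0.39 ± 0.13 with IL-4 (adjusted p = 0.030) and -0.63 ± 0.13 with IL-13 (adjusted p = 0.00019).

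Cyba (0.26 ± 0.09 with either cytokine, adjusted p = 0.042 and 0.034), Sod1 (-0.58 ± 0.19 and -0.55 ± 0.18, adjusted p = 0.029 and 0.030), Sod2 (0.18 ± 0.12 and 0.24 ± 0.12) and Rac2 (-0.14 ± 0.10 and -0.23 ± 0.10) did not pass. The ratio of Cybb to Cyba counts was 2.82 to 3.12 after IL-4 and 2.35 to 3.39 after IL-13, below the 5.42 to 5.95 of control cells, the opposite direction to IFN-LPS. Between IL-13 and IL-4, no member differed (0 of 7 in edgeR and 0 of the 6 that DESeq2 tested), and 0.108% of all genes did. At an unadjusted p under 0.05 in edgeR there were 0 members, beside 643 of 9252 genes. The largest difference among the members was that of Ncf1, at -0.24 ± 0.13 on the log2 scale. A miss of the threshold does not show that IL-4 and IL-13 act alike on these genes.

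At 12 h, IFN-LPS could be set against IL-4 and IL-13 at the same time of treatment. Cybb, Cyba, Ncf1, Ncf4, Rac2 and Sod2 were higher with IFN-LPS than with either cytokine, and Sod1 did not pass (0.19 ± 0.20 and 0.14 ± 0.19, log2 ± SE). Of 9841 genes tested, 22.5% were higher and 20.6% lower than with IL-4, and 22.2% were higher and 20.9% lower than with IL-13. The fold was 29.6 and 28.1 for Sod2, 6.99 and 7.27 for Cybb, 6.40 and 7.50 for Ncf1, 4.49 and 4.74 for Rac2, 1.97 and 1.93 for Ncf4 and 1.34 and 1.33 for Cyba, against IL-4 and IL-13. Both comparisons share the 12 h IFN-LPS samples. Antisense reads of the members were 0.441% to 0.468% in those samples and 0.0322% to 0.142% with IL-4 and IL-13, a difference that cannot be told apart from the treatments. Without scaling factors Cyba no longer passed in either (0.08 and 0.04), and that setting lowered the median of all genes by 0.35 and 0.37, with 1465 genes higher and 3450 lower than with IL-4 and 1435 higher and 3646 lower than with IL-13.

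In RAW264.7 cells with LPS for 4 h, Sod2, Cybb and Rac2 rose and Ncf1 fell. Each condition has 2 samples, so the test leans on the spread over all genes. Of 9406 genes, 15.1% rose and 12.8% fell, and at the study's further cutoff of a log2 fold change of 2, 3.22% of genes and 0 members passed. At an unadjusted p under 0.05 and any size there were 5 members in edgeR, beside 4262 of the 9406 genes, and 4 members in DESeq2.

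Sod2 went from 109 and 103 CPM to 239 and 247 CPM (log2 1.24 ± 0.09, adjusted p = 1.16e-37 in edgeR), and Cybb from 474 and 445 CPM to 732 and 728 CPM (0.71 ± 0.07, adjusted p = 4.32e-23). The LPS samples lay above the control samples for both genes. Rac2 went from 513 and 543 CPM to 675 and 643 CPM (0.36 ± 0.07, adjusted p = 1.31e-06), a call lost without scaling factors (0.18, adjusted p = 0.033) and with all 25 samples in 1 fit (0.32, adjusted p = 0.023). Ncf1 went from 77.8 and 80.9 CPM to 52.5 and 56.2 CPM (-0.50 ± 0.13, adjusted p = 0.00054), a call lost in DESeq2 (adjusted p = 0.050), with all 25 samples in 1 fit (adjusted p = 0.029) and without LPS replicate 1 (-0.45, adjusted p = 0.026). Cyba (0.32 ± 0.12, adjusted p = 0.017), Ncf4 (-0.13 ± 0.12) and Sod1 (-0.01 ± 0.12) did not pass. Leaving out scaling factors lowered the median of all genes by 0.18, with 876 genes higher and 2005 lower.

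Set side by side with IFN-LPS for 4 h in BMDMs, which is another stimulus in other cells, Sod2 changed by 1.24 in RAW264.7 and 4.14 in BMDMs on the log2 scale, Cybb by 0.71 and 1.72, and Ncf1 by -0.50 and 1.61. The difference between the 2 responses was not tested.

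The resting levels differed between the cell types as well. Against control BMDMs, control RAW264.7 cells were lower in both chains of the heterodimer and higher in Ncf4, Rac2, Sod1 and Sod2, while 31.9% of 10612 genes were higher and 33.7% lower. Cybb was at 459 CPM (445 and 474) against 1633 ± 76.9 CPM (SD, n = 3), a log2 difference of -1.83 ± 0.10 (SE), or 3.55-fold lower. Cyba was at 78.7 ± 6.18 CPM (SD, n = 2) against 284 ± 6.71 CPM, a log2 difference of -1.85 ± 0.11, or 3.61-fold lower. The 2 chains were thus lower by nearly equal factors, and the ratio of their counts was 5.36 to 6.37 in RAW264.7 and 5.42 to 5.95 in control BMDMs. Antisense reads of the members were 0.172% to 0.202% in control RAW264.7 and 0.31% to 0.446% in control BMDMs. This difference between libraries cannot be told apart from the cell type.

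Rac2 was at 513 and 543 CPM in RAW264.7 against 203.5 ± 16.3 CPM (log2 1.37 ± 0.11), and Rac1 was lower (-0.73 ± 0.10, adjusted p = 1.12e-09 in edgeR), so the ratio of Rac2 to Rac1 counts was 2.07 to 2.34. Sod1 was at 87.6 ± 0.320 CPM against 34.1 ± 3.75 CPM (1.36 ± 0.15), with 225 to 253 counts a sample in the line. Ncf4 (0.87 ± 0.14) and Sod2 (0.59 ± 0.12) were higher, and Ncf1 did not pass (-0.16 ± 0.17, and 0.09 without scaling factors). Without scaling factors the median of all genes was 0.24 higher, with 4009 genes higher and 2936 lower in the line.

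Over the 9 conditions, the group means of Sod2 spanned 33.7-fold, those of Cybb 15.7-fold, Ncf1 7.98-fold, Cyba 7.20-fold, Rac2 6.50-fold, Sod1 3.81-fold and Ncf4 3.71-fold. From high to low, Cybb ran from IFN-LPS 24 h and 12 h, which overlapped, through 4 h, 1 h, control, IL-4 and IL-13, which overlapped, to RAW264.7 with LPS and RAW264.7 control. Sod2 kept the same order of the 4 IFN-LPS times, followed by RAW264.7 with LPS, RAW264.7 control, IL-13, IL-4 and control BMDMs. Sod1 had both RAW264.7 groups at the top, and among the BMDM groups only 24 h and 12 h lay apart as neighbours in the order. Rac2 had IFN-LPS 24 h and 12 h, RAW264.7 with LPS and RAW264.7 control, each apart from the next, above the other 5 groups, which overlapped from each to the next.

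The genes whose group means were most like each member's over the 9 conditions, by Pearson's r of log2(CPM + 1) among 6136 genes, were Rab32 (0.992), Ninj1 and Gbp9 for Cybb, Wfdc17 (0.995), Capns1 and Cstb for Cyba, Osbpl3 (0.992), Serp1 and Nab1 for Ncf1, Ufc1 (0.967), Psmb5 and Mlx for Ncf4, Prdx2 (0.979), Atf6b and Nadk for Rac2, Dazap1 (0.982), Hist1h4d and Mrpl19 for Sod1 and Il2rg (0.993), Ccl5 and Gsdmd for Sod2. These are descriptions over 9 means from shared libraries, with no test.

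Partners of the oxidase did not move as a block. Of the 4 IFN-LPS times, Rac1, the Rac GTPase of many cell types, rose at 1 h alone (0.31 ± 0.09, adjusted p = 0.006), a call not made without scaling factors (0.12, adjusted p = 0.29), where Rac1 was instead lower at 4 h (-0.30), 12 h (-0.32) and 24 h (-0.47), each past the threshold.

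Of a list of 17 partners and regulators, all tested in BMDMs, 5 rose and 2 fell after 1 h, 6 rose and 6 fell after 4 h, 9 rose and 3 fell after 12 h, and 9 rose and 3 fell after 24 h. Without scaling factors the counts were 2 and 5 after 1 h, 5 and 11 after 4 h, 7 and 5 after 12 h and 9 and 5 after 24 h. In that setting 1022 of all 9568 genes rose and 1831 fell after 1 h, and 1489 and 4617 after 4 h. After 12 h these were 1550 and 3392, and after 24 h 1622 and 2858. With scaling, 14.7% of all genes rose and 11.3% fell after 1 h, and 26.0% and 25.6% after 4 h. After 12 h these shares were 23.9% and 23.4%, and after 24 h 23.9% and 21.3%. Pla2g4a, a cytosolic phospholipase whose product arachidonic acid promotes oxidase activity, rose by 1.19 after 1 h, 1.43 after 4 h, 2.75 after 12 h and 2.22 after 24 h (log2), and Arhgdib, a GDP-dissociation inhibitor of small GTPases in blood cells, by 1.07, 1.28, 2.36 and 2.74. Vav3, a Rac exchange factor, fell by 1.92 after 12 h and by 2.75 after 24 h. Of the other Rac exchange factors listed, Vav1 rose by 1.32 and 1.40 and Prex1 by 1.25 and 1.05 at these times. Dock2 fell (-1.04 and -0.62), and Vav1 was lower than control after 4 h (-1.05). Prkcb, a kinase that phosphorylates p47phox, fell by 1.08 after 4 h and was higher than control by 0.38 after 12 h (0.06 and not past the threshold without scaling factors) and by 1.61 after 24 h.

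With IL-4, 2 partners rose and 0 fell, where 4.38% of all genes rose and 3.25% fell. With IL-13, 2 rose and 1 fell, where 5.61% of all genes rose and 4.49% fell. Hvcn1, the proton channel that balances the charge moved by the oxidase, rose most, from 348 ± 18.7 CPM to 825 ± 25.4 CPM with IL-4 (log2 1.23 ± 0.08) and 848 ± 76.3 CPM with IL-13 (1.26 ± 0.08). Prkcd, a further kinase of p47phox, rose by 0.90 ± 0.10 with IL-4 and by 1.24 ± 0.10 with IL-13, and the difference between the 2 cytokines did not pass (adjusted p = 0.18 in edgeR). Both genes also rose with IFN-LPS after 4, 12 and 24 h, Hvcn1 by 0.91, 0.46 and 0.62 and Prkcd by 0.86, 0.93 and 0.77. Neither passed after 1 h, and without scaling factors Hvcn1 did not pass after 12 h (0.15). In RAW264.7 with LPS, 1 of 15 partners tested rose and 7 fell, with Prkcd rising by 1.12 ± 0.11, while DESeq2 called 1 in each direction. Of all genes, 15.1% rose and 12.8% fell there in edgeR, and DESeq2 called 754 of 9406 genes higher and 472 lower. Against control BMDMs, 4 partners were higher and 9 lower in control RAW264.7 cells, where 31.9% of all genes were higher and 33.7% lower.

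Of 15 genes that handle superoxide and peroxide, 3 rose and 2 fell after 1 h, 5 rose and 3 fell after 4 h, 6 rose and 3 fell after 12 h and 7 rose and 2 fell after 24 h. Beside these counts, 14.7% of all genes rose and 11.3% fell after 1 h, and 26.0% and 25.6% after 4 h. The shares were 23.9% and 23.4% after 12 h and 23.9% and 21.3% after 24 h. Without scaling factors the counts for the 15 genes were 3 and 3 after 1 h, 3 and 7 after 4 h, 6 and 4 after 12 h and 6 and 3 after 24 h. Over all 9568 genes that setting gave 1022 and 1831 after 1 h and 1489 and 4617 after 4 h. It gave 1550 and 3392 after 12 h and 1622 and 2858 after 24 h. Prdx5, a peroxiredoxin found in mitochondria, peroxisomes and cytosol, stood out beside Sod2. It was at 185 ± 22.8 CPM in control cells (SD, n = 3), 708 ± 31.2 CPM after 1 h, 1636 ± 20.4 CPM after 4 h, 2912 ± 157.5 CPM after 12 h and 3279 ± 251 CPM after 24 h, with log2 fold changes of 1.91, 3.09, 3.93 and 4.15 (SE 0.09 to 0.10).

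Txn1, a cytosolic thioredoxin, rose by 2.38 after 12 h and 2.17 after 24 h, Txnrd1, its reductase, by 1.25 after 1 h and 1.75 after 4 h, and the peroxiredoxin Prdx1 by 1.79 after 24 h. Txn1 was already at 310 ± 34.7 CPM after 1 h and 470 ± 13.6 CPM after 4 h, against 135 ± 7.05 CPM in control cells. Txnrd1 was at 331 ± 14.0 CPM after 12 h and 229.5 ± 27.9 CPM after 24 h, against 133 ± 3.32 CPM. Prdx1 was at 3453 ± 245 CPM after 12 h, against 1282 ± 89.4 CPM. Cat (catalase) and Gpx1 (a glutathione peroxidase), which both remove hydrogen peroxide, fell. Cat fell from 148 ± 4.00 CPM to 60.2 ± 10.2 CPM after 1 h (-1.34 ± 0.13) and 44.6 ± 1.32 CPM after 4 h (-1.79 ± 0.14), and Gpx1 from 433 ± 16.3 CPM to 102 ± 2.35 CPM after 12 h (-2.13 ± 0.10). At the other times, Cat was at 69.2 ± 12.1 CPM after 12 h and 103 ± 10.1 CPM after 24 h. Gpx1 was at 281 ± 20.1 CPM after 1 h, 196.5 ± 26.2 CPM after 4 h and 221 ± 13.4 CPM after 24 h. With IL-4 and IL-13, Cat was also below control cells, at 88.0 ± 10.1 CPM and 90.5 ± 4.1 CPM. Gpx1 was above control cells with these cytokines, at 522 ± 29.0 CPM and 504 ± 38.7 CPM. With IL-4, 2 of the 15 rose and 1 fell, and with IL-13, 2 rose and 2 fell. Among them was Sod3, the secreted dismutase, which rose by 1.61 ± 0.23 with IL-13 from 9.86 ± 3.10 CPM. Sod3 was also at 19.4 ± 3.6 CPM with IL-4. With IFN-LPS it was at 8.55 ± 3.66 CPM after 1 h, 22.05 ± 1.62 CPM after 4 h, 23.4 ± 2.10 CPM after 12 h and 22.4 ± 2.94 CPM after 24 h. Over all genes, 4.38% rose and 3.25% fell with IL-4, and 5.61% rose and 4.49% fell with IL-13. In RAW264.7 with LPS, 3 of 14 tested rose, with Prdx5 at 1.05 ± 0.11, and 2 fell (2 and 0 in DESeq2). Of all genes there, edgeR called 15.1% higher and 12.8% lower, and DESeq2 called 754 of 9406 higher and 472 lower. Between the control cells of the 2 types, 5 were higher and 5 lower in RAW264.7, beside 31.9% and 33.7% of all genes.

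**Figure D4:**
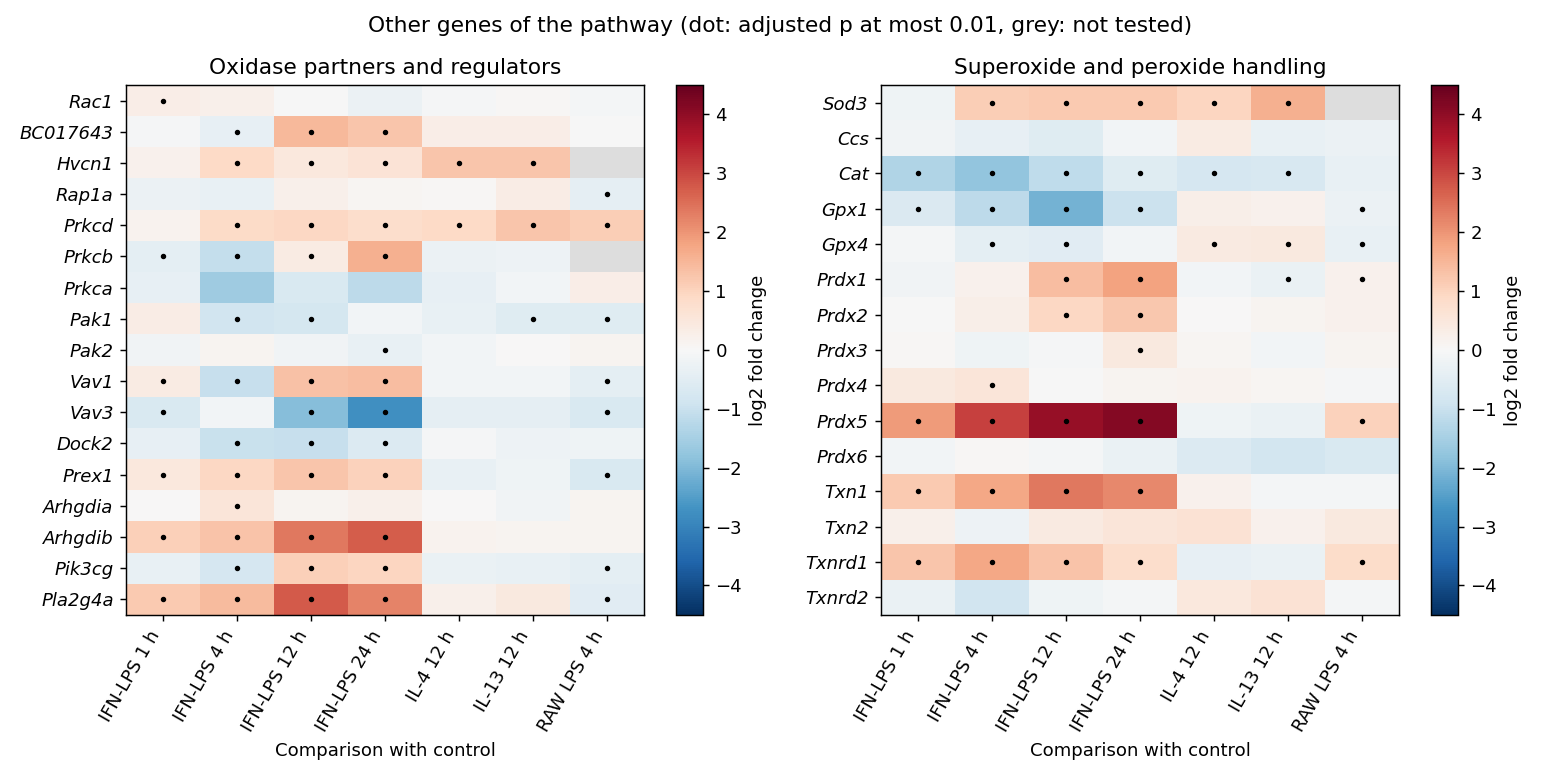
The log2 fold change (colour) of 17 oxidase partners (left) and 15 genes of superoxide and peroxide handling (right) in 7 comparisons with control, with a dot where the adjusted p was at most 0.01 and grey where a gene was not tested. Prdx5 is the strongest rise at each time of IFN-LPS, and Gpx1 and Vav3 the strongest falls at 12 h.

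Other NADPH oxidases were near the limit of these libraries. None of 9 genes (Nox1, Nox3, Nox4, Noxo1, Noxa1, Duox1, Duox2, Duoxa1 and Duoxa2) passed the filter. Over all 25 samples Nox4 had 30 counts, Nox1 had 21 and Noxo1 45, with at most 6 in any sample, Duoxa1 had 5, Duox1 and Duox2 1 each, and Nox3, Noxa1 and Duoxa2 none, beside at least 1228 counts of Cybb in each sample.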

How the data were processed

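RNA was sequenced in paired ends with a strand-specific kit after depletion of ribosomal RNA by the protocol, although the molecule label reads polyA RNA, and which holds was not settled. Per the labels, CASAVA 1.8.2, Trimmomatic 0.33, STAR 2.5.1 and DESeq2 were used by the submitters with the mm10 genome, and the authors deposited for each sample the whole-number read counts per gene, unstranded and by strand, with no normalization. The annotation release is not given in the sources used here. Multi-mapping reads cannot be recovered from such counts.

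Sense-strand counts were used. Rn45s, a ribosomal precursor, was left out, since it took a share of counts that varied between libraries. Totals with it ran from 2378639 to 3357300 counts per sample and leave genes such as Sod1 with few counts. edgeR 4.0.16 (R 4.3.3) was run with filterByExpr by group, TMM, robust quasi-likelihood fits (a mean for each group) and Benjamini-Hochberg adjustment over all genes tested, on the 15 time-course samples, the 9 samples of control, IL-4 and IL-13 cells, the 4 RAW264.7 samples, the 21 BMDM samples (IFN-LPS against IL-4 and IL-13) or all 25 (RAW264.7 against BMDMs). A gene was called at an adjusted p of at most 0.01. The SE was taken from the fold change and its F statistic, as the size of the first divided by the root of the second. The scripts were tested on simulated data. Named genes are the members, Rac1 and, of each list, up to 3 genes with the largest log2 fold change of at least 1 in size past the threshold in a comparison with control. Values at other times are given for some of these genes, and Vav1, Prex1 and Dock2 were added beside Vav3. Genes alike in pattern are the 3 with the highest Pearson's r among genes averaging at least 20 CPM. Members and lists were chosen with earlier results of these data known, and 1 listed partner of the oxidase is not reported here. Alternatives were DESeq2 1.42.0, DESeq2 size factors in edgeR, no scaling, other count filters, unstranded counts, Rn45s kept, all samples in 1 fit, the replicate number as a block and each sample left out. Figures were drawn with Python 3.11.15 and matplotlib 3.10.9. Replicates of a group differed by more than sampling noise (chi-square per degree of freedom of 1.33 to 4.93).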

Additional observations from a re-analysis of the deposited data

How the results depend on the processing

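The count of members called was within 1.5 times its value under every alternative and comparison run, except for RAW264.7 with LPS, where it went from 4 to 2 with all 25 samples in 1 fit, and where a sample was left out. Leaving out a sample gave 3 to 5 members for the step from 4 to 12 h (3 without IFN-LPS 4 h replicate 1), 1 to 2 for the step from 12 to 24 h (1 without replicate 2 at 12 h or at 24 h) and 1 to 3 with IL-4 (1 without control replicate 3 or IL-4 replicate 1). The cause was not tested.

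Directions turned for Ncf4 at 4 h, a called rise of 0.50, and for values that had not passed the test. At 4 h without scaling factors the log2 fold change was -0.022 for Ncf4, -0.44 for Rac2 and -0.51 for Sod1 (adjusted p = 0.90, 0.00029 and 0.0095 in edgeR), since that setting lowers all genes. With 10 counts or more required of each sample it was -0.085 for Rac2 and -0.15 for Sod1, and with unstranded counts -0.00037 for Sod1. Leaving out a sample at 4 h gave -0.048 to 0.17 for Rac2 and -0.063 to 0.11 for Sod1, with -0.015 for Sod1 without 4 h replicate 2. For Sod1 in RAW264.7 with LPS, DESeq2 gave 0.00014 and leaving out a sample -0.12 to 0.12, with 0.0050 without control replicate 1. For Ncf1 in RAW264.7 against BMDMs, no scaling factors gave 0.094.

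Calls were gained for Ncf4 at 1 h with at least 1 count (0.46), with all 25 samples in 1 fit (0.45) and without 1 h replicate 3 (0.52), for Ncf1 with IL-4 without control replicate 2 (-0.51), and with IL-13 for Cyba without IL-13 replicate 3 (0.36) and for Sod1 without IL-13 replicate 2 (-0.77). DESeq2 gave no adjusted p for Sod1 between IL-13 and IL-4. Over all genes, calls in RAW264.7 with LPS went from 1418 higher and 1207 lower to 754 and 472 in DESeq2, those in RAW264.7 against BMDMs from 3384 and 3575 to 2094 and 2044 with 10 counts or more required of each sample, and those between IL-13 and IL-4 from 8 and 2 to 16 and 2 with at least 1 count and 2 and 2 with at least 10. In the step from 12 to 24 h, DESeq2 called 288 higher and 832 lower, against 508 and 852.

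Samples of one replicate number were not tied to each other by the labels, and their deviations from the group means correlated at -0.0845 to 0.209 in the time course, at -0.0553 to 0.137 among the cytokine groups and at 0.0275 in the RAW264.7 line. With the replicate block, 4, 5, 6 and 6 members were called at 1, 4, 12 and 24 h, 2 with IL-4, 3 with IL-13 and 4 in the line, and no call of a member changed.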

Other observations

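Some genes of the oxidase's surroundings were at or near 0 in the RAW264.7 line, and they were chosen after their values were seen. Prkcb, a protein kinase C that acts on p47phox, was at 255.5 ± 12.4 CPM in control BMDMs (SD, n = 3) and had 0 counts in each of the 4 RAW264.7 samples. Taking 3 counts per library as the floor, it was at least 214-fold higher in control BMDMs than in any library of the line. Hvcn1, the voltage-gated proton channel, was at 348 ± 18.7 CPM in control BMDMs and had 4 and 2 counts in the control and 1 and 1 in the LPS samples of RAW264.7. Sod3 had 0 counts in all 4 RAW264.7 samples, beside 9.86 ± 3.10 CPM in control BMDMs. These limits cover counting error only.

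BC017643, the older symbol of Cybc1, whose product is a chaperone of the gp91phox and p22phox heterodimer, was also chosen after its values were seen. It was at 108 ± 8.83 CPM in control cells (SD, n = 3), 86.8 ± 3.19 CPM at 4 h and 310 ± 24.1 CPM at 12 h of IFN-LPS. In the step from 4 to 12 h it rose by 1.84 ± 0.12 (log2 ± SE, adjusted p = 2.65e-18 in edgeR). Of the 7 members, 5 rose in that step, and of the 17 partners, with BC017643 among them, 7 rose and 3 fell. Over all genes 16.7% rose and 19.2% fell.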
